A study of Arabidopsis thaliana with 15 samples.

Results

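The genes of the chloroplast and mitochondrial genomes were followed in leaf 6 of Arabidopsis plants whose leaf 1 had been treated. Members were all rows of the deposited expression table whose gene ID starts with ATCG (chloroplast genome) or ATMG (mitochondrial genome). They made up 285 of 32833 genes, of which 133 were chloroplast and 152 were mitochondrial. All 15 RNA-seq libraries came from leaf 6 of WT Col-0 plants aged 22 to 24 days, grown on MS medium at 22 °C under 10 h of light and 14 h of dark. In the GSH group leaf 1 received 100 mM glutathione for 1 h, and in the Glu group it received 100 mM glutamate for 1 h. The mock group had no small molecule treatment. In the wounding group leaf 1 was mechanically wounded and leaf 6 was taken 1 h later, and the wounding mock group was taken before wounding. The labels give no time of day, so wounding and time of sampling cannot be told apart between these groups. Each group had 3 libraries. By the study's methods leaf 1 was cut beforehand and left to recover where a solution was applied, and none of the groups is labelled as receiving the solvent alone. The labels do not say whether the libraries of a group came from separate plants, so p-values measure only the spread between libraries.

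Chloroplasts and mitochondria keep small genomes of their own. The chloroplast genome encodes core subunits of both photosystems, of the cytochrome b6f complex, of the chloroplast ATP synthase and of an NDH complex, together with the large subunit of Rubisco, ribosomal proteins, rRNAs and tRNAs. Its genes are read by a bacterial-type RNA polymerase encoded in the plastid (PEP), which needs nuclear sigma factors and nuclear PEP-associated proteins, and by phage-type polymerases encoded in the nucleus. The plant mitochondrial genome encodes core subunits of respiratory complexes and of the ATP synthase, proteins of cytochrome c maturation, ribosomal proteins, rRNAs and tRNAs. Organellar transcripts generally carry no long stable poly(A) tail, so the way a library is selected decides how much of them is sequenced. The selection used is not given in the sources used here.

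The annotation used here, TAIR10.1 from RefSeq, does not pair the ATCG and ATMG IDs with gene symbols. Names were therefore given only to members that the annotation notes of nuclear genes name, and all other members are given by ID. A name of this kind stood in a note for 6 chloroplast and 24 mitochondrial IDs. Coding regions of 3 mitochondrial genes and their copies in the nuclear genome are shown, because a fragment from these stretches fits both genomes equally well. Each pair is the first 60 bases of the coding region, on the coding strand and without a difference, so nothing is capitalised. ATMG00220 is apocytochrome b (cob), the core of complex III. ATMG00730 is cytochrome c oxidase subunit 3 (cox3) of complex IV. ATMG01190 is ATP synthase subunit 1 (atp1).
ATMG00220, mitochondrial genome chrMT:182799-182858, minus strand: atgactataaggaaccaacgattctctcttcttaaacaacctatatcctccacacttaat
AT2G07727, nuclear copy chr2:3450863-3450922, plus strand: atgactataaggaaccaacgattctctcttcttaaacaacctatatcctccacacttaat
ATMG00730, mitochondrial genome chrMT:330714-330773, minus strand: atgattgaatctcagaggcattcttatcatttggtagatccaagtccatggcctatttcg
AT2G07687, nuclear copy chr2:3312592-3312651, minus strand: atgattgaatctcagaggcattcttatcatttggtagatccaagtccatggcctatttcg
ATMG01190, mitochondrial genome chrMT:68562-68621, minus strand: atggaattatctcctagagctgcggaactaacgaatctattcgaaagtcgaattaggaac
AT2G07698, nuclear copy chr2:3362505-3362564, plus strand: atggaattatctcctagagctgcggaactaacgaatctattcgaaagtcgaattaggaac

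A chloroplast member and its nuclear relative had drifted apart further. ATCG00420 is named in a note as the source of the pseudogene AT4G13285, which aligned within ndhJ, a subunit gene of the NDH complex. The 80 bases below differ at 6 positions, and the differing bases are in capitals.
ATCG00420, chloroplast genome chrPltd:48979-49058, minus strand: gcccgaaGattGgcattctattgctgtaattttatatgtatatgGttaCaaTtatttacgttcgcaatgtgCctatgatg
AT4G13285, nuclear pseudogene chr4:7738696-7738775, plus strand: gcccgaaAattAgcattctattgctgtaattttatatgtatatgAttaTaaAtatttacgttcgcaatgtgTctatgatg

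The values are FPKM, mapped fragments scaled to transcript length and library size, and the depth behind them is unknown. Summed FPKM lay between 548167 and 580837 per library. Of the leaf markers, RBCS1A, the small subunit of Rubisco, lay at 8089 FPKM or more in every library, while the flower markers AG and AP3 did not exceed 0.185 and 0.101 FPKM and the seed marker CRA1 did not exceed 0.179 FPKM. Of the root markers, CASP1 did not exceed 0.569 FPKM and PYK10, a beta-glucosidase, lay between 25.4 and 62.2 FPKM in every library. In 3 libraries the chloroplast genes stood apart from the rest of the series. These were wounding replicates 1 and 3 and wounding mock replicate 1, so the wounding experiment was split within both of its groups. The mitochondrial genes were less set apart. Their share of summed FPKM was 0.0166% in wounding replicate 3 and 0.0151% in Glu replicate 2. Wounding mock replicate 1 also had fewer genes above 0 than the other libraries (18664, against 21090 to 21750), and the 10th percentile of its values above 0 was 0.66 FPKM, against 0.169 to 0.236 FPKM elsewhere.

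Organellar RNA was a small part of the leaf 6 libraries. Chloroplast genes held 0.0677%, 0.0676% and 0.0592% of summed FPKM in the GSH libraries and 0.0545%, 0.0642% and 0.0637% in the Glu libraries, against 0.0715%, 0.0632% and 0.0578% in the mock libraries. These 3 groups overlapped. The chloroplast share was 0.24%, 0.0562% and 0.138% in the wounding libraries, against 0.215%, 0.0589% and 0.0643% in the wounding mock libraries. The difference of the group means was 0.0321 percentage points for wounding minus wounding mock, with an SD of 0.0918 in the wounding group and 0.0883 in the wounding mock group (n = 3 each). An exact two-sided permutation test gave p = 0.7, where 3 against 3 libraries cannot give less than 0.1. The other 4 comparisons of the chloroplast share gave p between 0.5 and 0.9. All of the 10 p-values for both organelles were 1 after Benjamini-Hochberg adjustment.

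**Figure D1:**
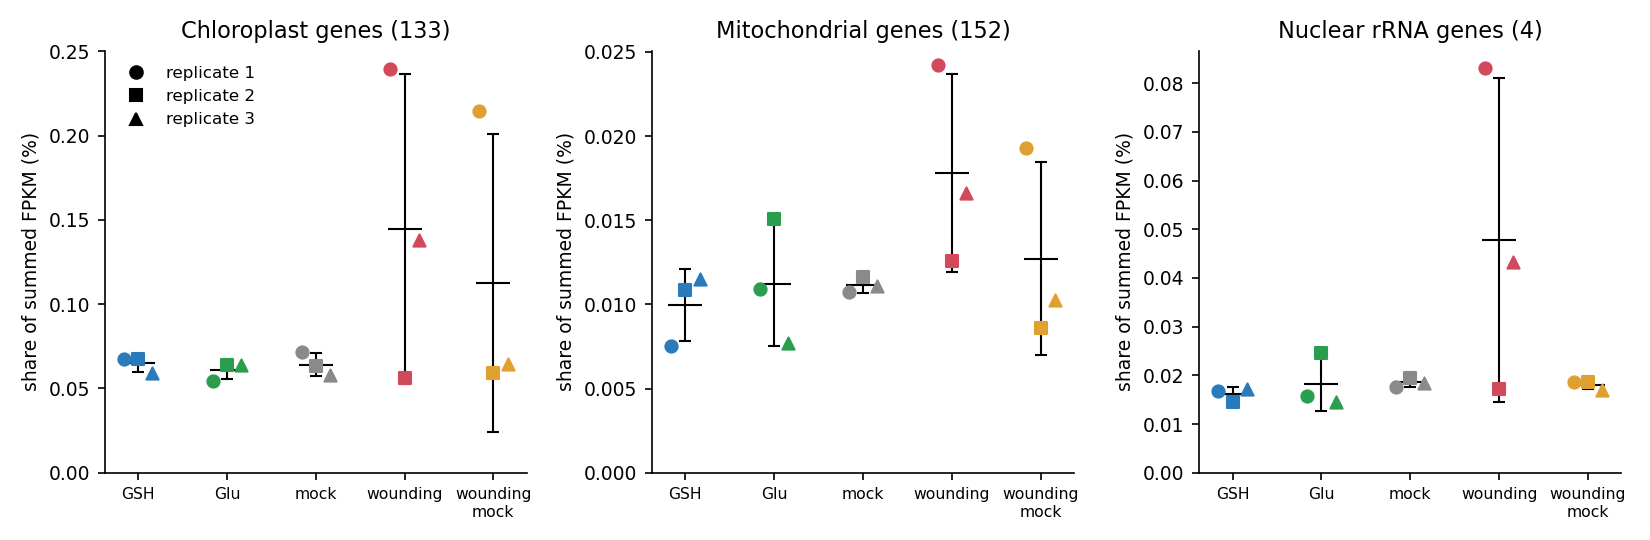
Share of summed FPKM (%) held by chloroplast genes, mitochondrial genes and nuclear rRNA genes in each of the 15 libraries, by group (points, shaped by replicate; horizontal line and bars, mean ± SD, n = 3). Wounding replicates 1 and 3 are high in all panels, at 0.24% and 0.138% for the chloroplast, whereas wounding mock replicate 1 is high in both organelle panels and not in the rRNA panel. In the mitochondrial panel wounding replicate 3 (0.0166%) lies close to Glu replicate 2 (0.0151%).

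The mitochondrial share was smaller. It was 0.00755%, 0.0109% and 0.0115% in the GSH libraries and 0.0109%, 0.0151% and 0.0077% in the Glu libraries, against 0.0107%, 0.0116% and 0.0111% in the mock libraries. In the wounding libraries it was 0.0242%, 0.0126% and 0.0166%, against 0.0193%, 0.00863% and 0.0102% in the wounding mock libraries. The wounding group was 1.4 times as high in the mean, and the groups overlapped (exact two-sided permutation test, p = 0.4). Across the 5 groups, an exact permutation test of F over all 1401400 partitions gave p = 0.323 for the chloroplast share and p = 0.213 for the mitochondrial share (adjusted p = 0.323 for both). In bulk leaf RNA, fewer organelles or cells of a type and less RNA in each cannot be told apart.

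Of the 133 chloroplast genes, 117 were above 0 in at least 1 library, 72 in every library, and 16 were listed at 0 throughout. A mean of at least 1 FPKM was reached by 74 of them and a mean of at least 10 FPKM by 12. The 5 highest members held 27.4% of the summed chloroplast means. ATCG01020 was the highest, with 40.4, 29 and 28.5 FPKM in the GSH libraries and 35.9, 34.2 and 36.7 FPKM in the Glu libraries, against 46.5, 33.4 and 36.8 FPKM in the mock libraries. In the wounding libraries ATCG01020 had 27.5, 21.3 and 40.9 FPKM, against 210.6, 34.8 and 28.3 FPKM in the wounding mock libraries. It was thus high in wounding mock replicate 1 and in no other library. ATCG00220 had the same form, with 16.1, 16 and 16.7 FPKM in the wounding libraries against 89.8, 14.8 and 15.8 FPKM in the wounding mock libraries, and between 15.5 and 29.1 FPKM in the GSH, Glu and mock libraries. The other members among the 5 highest were ATCG00790, ATCG00780 and ATCG00470, with means of 26.5, 23.9 and 19.1 FPKM. These 3 genes were high both in wounding replicate 1 (52.4, 48.4 and 34.5 FPKM) and in wounding mock replicate 1 (57.9, 49.3 and 47.9 FPKM).

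The members that varied most between libraries of a group were low in nearly all of them. ATCG00490 had the largest within-group SD, 0.974 on the log2(FPKM + 1) scale. Its values were 57, 3.09 and 24 FPKM in the wounding libraries, against 7.77, 3.08 and 3.22 FPKM in the wounding mock libraries. It lay between 2.47 and 3.32 FPKM in the GSH, Glu and mock libraries except Glu replicate 2, where it was 7.69 FPKM. ATCG00340 had 37.3, 1.35 and 14.7 FPKM in the wounding libraries, against 4.23, 1.41 and 1.79 FPKM in the wounding mock libraries. ATCG00300 had 17.7, 0.651 and 13.3 FPKM in the wounding libraries, against 1.03, 0.942 and 0.426 FPKM in the wounding mock libraries. In all 3 genes wounding replicate 2 lay with the wounding mock libraries and not with the other wounding libraries.

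**Figure D2:**
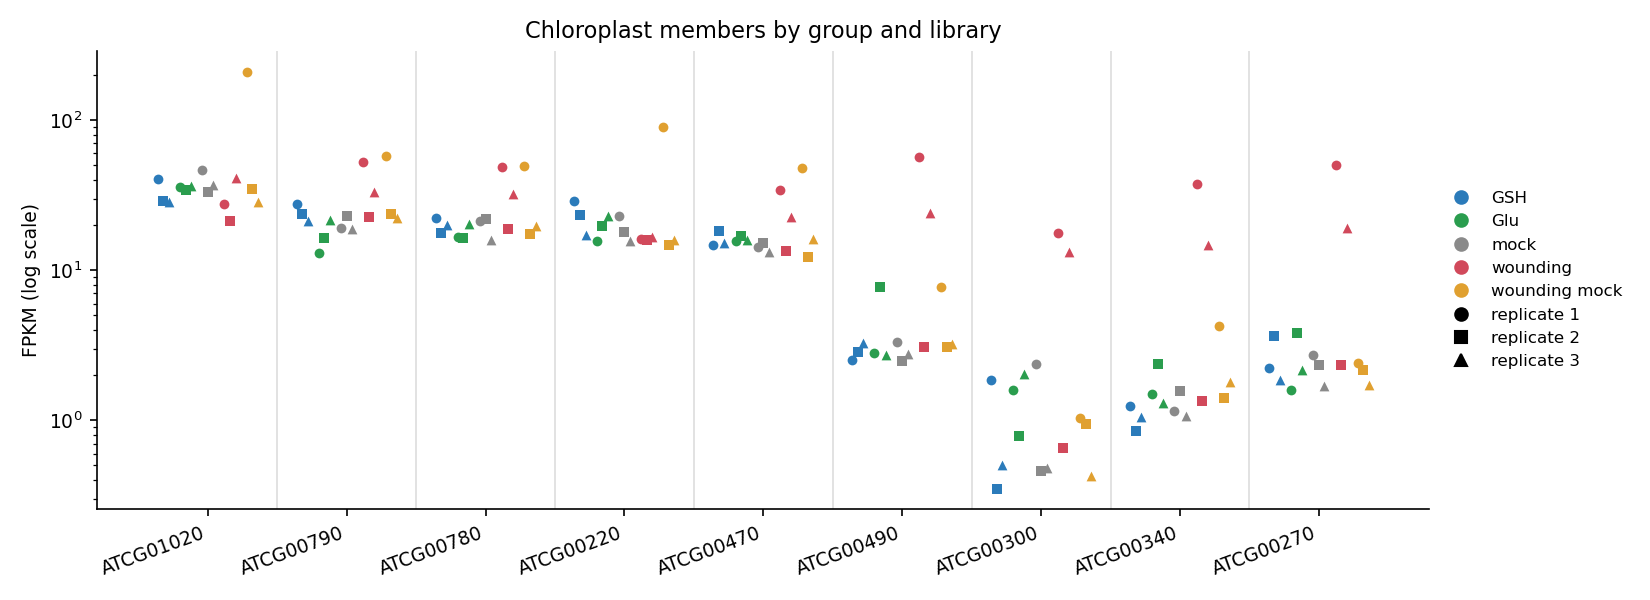
FPKM on a log axis of the 5 chloroplast members of highest mean, the 3 of largest within-group SD and ATCG00270, in each library (colour, group; shape, replicate). ATCG01020 and ATCG00220 stand out only in wounding mock replicate 1, at 210.6 and 89.8 FPKM, while ATCG00490, ATCG00300, ATCG00340 and ATCG00270 stand out in wounding replicates 1 and 3.

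The members that led the raised libraries were compared. Each of the 59 chloroplast members with a median of at least 1 FPKM over the 15 libraries was divided by that median. The ratio had a median of 3.03 in wounding replicate 1, 1.81 in wounding replicate 3 and 2.63 in wounding mock replicate 1, and between 0.772 and 1.03 in the other libraries. In wounding replicate 1 the most raised members were ATCG00340 (26.5 times its median), ATCG00350 (24.1 times), ATCG00270 (21.5 times), ATCG00280 (18.8 times) and ATCG00490 (18.5 times). In wounding replicate 3 the ratios of these members were 10.4 for ATCG00340, 9.65 for ATCG00350, 8.26 for ATCG00270, 7.45 for ATCG00280 and 7.78 for ATCG00490. Of the 10 most raised members of each library, 9 were shared by wounding replicates 1 and 3, and 1 was shared by wounding replicate 1 and wounding mock replicate 1. Unrelated lists of 10 out of 59 members would share 1.69 on average. Wounding replicate 1 also shared 6 of its 10 with Glu replicate 2, a library whose chloroplast share was not raised. The member common to wounding replicate 1 and wounding mock replicate 1 was ATCG00710, at 9.51, 5.44 and 5.05 times its median in wounding replicate 1, wounding replicate 3 and wounding mock replicate 1. ATCG01020 led wounding mock replicate 1 at 6.05 times its median, and was at 0.79 times in wounding replicate 1.

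The raised genes were also counted at a lower ratio. A ratio over 2 was reached by 46 of the 59 members in wounding replicate 1, 25 in wounding replicate 3 and 45 in wounding mock replicate 1. All 25 of wounding replicate 3 were among the 46 of wounding replicate 1, a share of 100% and of 54.3%. Wounding replicate 1 and wounding mock replicate 1 shared 34, which were 73.9% of the first set and 75.6% of the second. Both sets, of 46 and 45, held most of the 59 members, so a large overlap would arise between unrelated sets too. Wounding replicate 3 and wounding mock replicate 1 shared 17, which were 68% of the first set and 37.8% of the second. Members next to each other in the numbering of the IDs had like ratios in wounding replicate 1. Their median gap was 0.293 on the log2 scale over 44 such pairs, against 1.15 over all 1711 pairs. In wounding mock replicate 1 it was 0.474 over 42 pairs, against 0.579 over all 1653 pairs of members above 0.

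**Figure D3:**
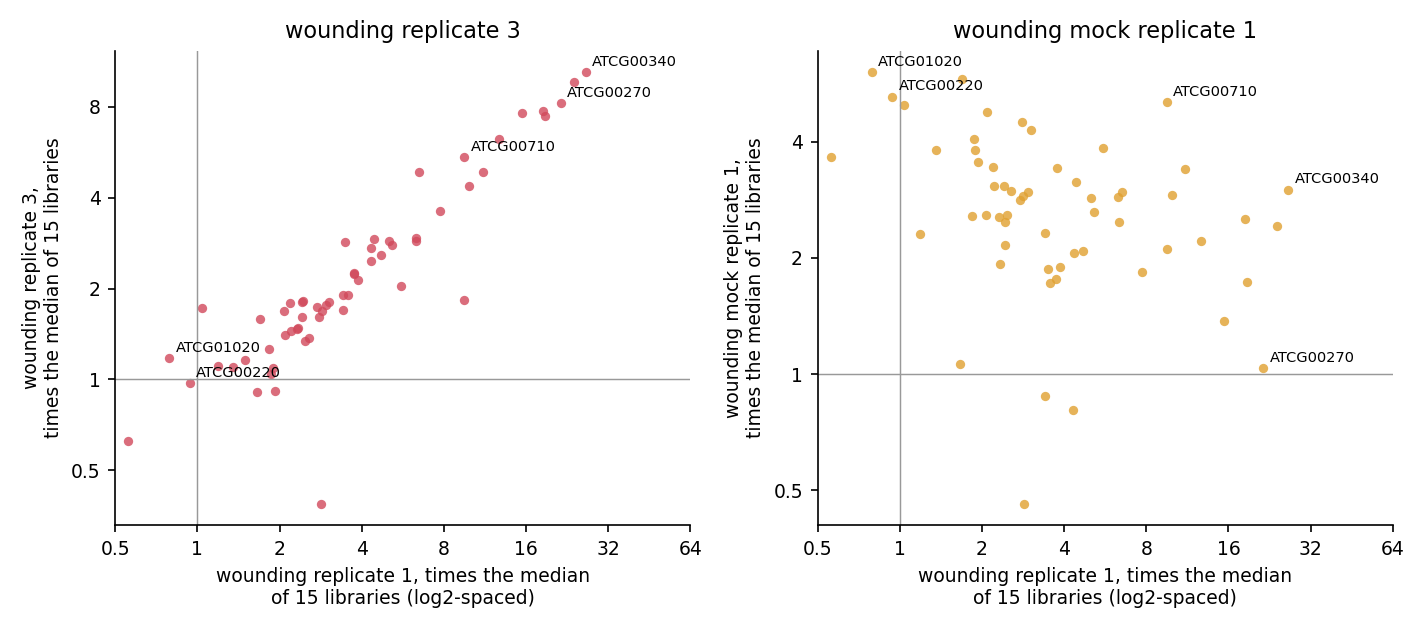
Each point is a chloroplast member with a median of at least 1 FPKM, as a multiple of its median over 15 libraries in wounding replicate 1 (x axis) and in wounding replicate 3 (left) or wounding mock replicate 1 (right), on log axes; members at 0 in a plotted library are not drawn. ATCG00340 and ATCG00270 are among the most raised in both wounding libraries (26.5 and 21.5 times in wounding replicate 1), while ATCG01020 leads wounding mock replicate 1 at 6.05 times.

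Nuclear rRNA moved with some of these libraries. The 4 nuclear rRNA genes in the table held 0.0831%, 0.0171% and 0.0433% of summed FPKM in the wounding libraries, against 0.0186%, 0.0186% and 0.017% in the wounding mock libraries. The share was 0.0245% in Glu replicate 2 and between 0.0144% and 0.0195% in the other GSH, Glu and mock libraries. Wounding mock replicate 1, high in chloroplast RNA, was thus not high in nuclear rRNA. The part of rRNA or of RNA quality in the organellar values was not tested. Within the 9 GSH, Glu and mock libraries the mitochondrial share followed the nuclear rRNA share with Pearson's r = 0.784 (exact permutation p = 0.0237, adjusted p = 0.0712 over 3 relations) and Spearman's rho = 0.7 (exact permutation p = 0.0433, adjusted p = 0.13). Neither passed the adjustment. Without Glu replicate 2 and GSH replicate 1, the libraries farthest from the median, r was 0.626. The type of the members was not annotated here, so mitochondrial rRNA genes could not be set apart from other members within the mitochondrial share. For the chloroplast and mitochondrial shares r was -0.185 (exact permutation p = 0.641, adjusted p = 0.961), rho was -0.467 (exact permutation p = 0.213, adjusted p = 0.319) and r without Glu replicate 1 and mock replicate 1 was -0.278. For the chloroplast and rRNA shares r was 0.00842 (exact permutation p = 0.997, adjusted p = 0.997), rho was -0.0667 (exact permutation p = 0.88, adjusted p = 0.88) and r without Glu replicate 1 and mock replicate 1 was -0.208. The 6 libraries of the wounding experiment fall into separate clusters, so the relation was not tested there or over all libraries.

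Members were compared between groups with limma on log2(FPKM + 1), fitted on every gene that reached 1 FPKM in 3 of the 6 libraries. A gene was called at an adjusted p under 0.05 (Benjamini-Hochberg over all genes tested). In wounding leaves against wounding mock leaves limma called none of the 76 chloroplast and 17 mitochondrial members tested, where 19.7% of all genes tested were called. The unadjusted p was under 0.05 for 8 chloroplast and 3 mitochondrial members, where it was so for 31.9% of all genes tested. Of the members tested, 10 chloroplast and 1 mitochondrial reached 1 FPKM only in wounding replicates 1 and 3 and wounding mock replicate 1. The median log2 fold change was 0.55 over the chloroplast members tested and 0.35 over the mitochondrial ones, against -0.07 over all genes tested. Without the filter on low values these medians were 0.33 and 0.03, and without wounding mock replicate 2 the mitochondrial one was 0.09. ATCG00270 had the lowest adjusted p of the chloroplast members. Its values were 50, 2.35 and 19.2 FPKM in the wounding libraries, against 2.41, 2.15 and 1.73 FPKM in the wounding mock libraries. The log2 fold change was 2.29, with a standard error of 0.86 (limma adjusted p = 0.11). No chloroplast member had wounding and wounding mock libraries that did not overlap, where 39% of all genes tested had. Without wounding replicate 2, limma called 19 of 75 chloroplast members, all higher in wounding, where 11.5% of all genes tested in that fit were called, and ATCG00270 had an adjusted p of 0.0035. Without wounding mock replicate 1 it called 1 of 64, higher, where 31.8% of all genes were called, and without wounding mock replicate 2 it called 1 of 74, lower, where 16% were called. Without wounding replicate 1 it called none, and the median log2 fold change of the chloroplast members was -0.08. With both wounding replicates 1 and 3 left out, a setting chosen after seeing the data, limma again called none (wounding replicate 2 alone is then assumed to vary like the other libraries), and ATCG00270 had a log2 fold change of 0.12.

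In leaf 6 of Glu-treated plants 2 of the 62 chloroplast members tested were called and both were lower, where 10.2% of all genes tested were called and 3.04% were called lower. ATCG00580 had 3.59, 4.07 and 4.78 FPKM in the Glu libraries, against 5.81, 6.95 and 6.94 FPKM in the mock libraries. The log2 fold change was -0.56, with a standard error of 0.12 (limma adjusted p = 0.0213). ATCG00150 had 2.36, 3.29 and 2.88 FPKM in the Glu libraries, against 4.5, 4.67 and 4.23 FPKM in the mock libraries. The log2 fold change was -0.51, with a standard error of 0.12 (limma adjusted p = 0.0296). In both genes every Glu library lay below every mock library, and neither passed the study's threshold of an absolute log2 fold change above 1. Of all genes tested, 1.23% had both an adjusted p under 0.05 by limma and an absolute log2 fold change above 1. The unadjusted p was under 0.05 for 7 chloroplast members, where it was so for 26.9% of all genes tested. Both calls were lost without Glu replicate 1 (adjusted p = 0.0977 for ATCG00580 and 0.124 for ATCG00150), without mock replicate 2 (0.0834 and 0.106) and without the filter on low values (0.0706 and 0.0779). ATCG00580 was also lost without Glu replicate 2 (adjusted p = 0.0547) and ATCG00150 without mock replicate 1 (0.0903). Without mock replicate 3 limma called 5 of 60 chloroplast members, all lower, where 11.4% of all genes tested in that fit were called. In the same libraries 2 of the 3 nuclear rRNA genes tested were also called lower in Glu. AT2G01020 had 4.16, 5.6 and 2.2 FPKM in the Glu libraries, against 11.4, 9.44 and 9.54 FPKM in the mock libraries (log2 fold change -1.21, limma adjusted p = 0.0128, with 0.0564 without mock replicate 1 and 0.076 without the filter). AT2G01010 had 0.784, 0.715 and 0.96 FPKM in the Glu libraries, against 1.61, 2.16 and 2.04 FPKM in the mock libraries (log2 fold change -0.69, limma adjusted p = 0.019, with 0.0838 without Glu replicate 1 and 0.0552 without Glu replicate 2). The third gene, AT3G41768, was the highest of them and was not lower. It averaged 99 FPKM in the Glu group and 93.7 FPKM in the mock group (log2 fold change 0.04, limma adjusted p = 0.895). The part of the nuclear rRNA genes in the chloroplast calls was not tested. The Glu and mock libraries did not overlap for 9 chloroplast members, 4 higher and 5 lower, or 14.5% of those tested, against 32.3% of all genes tested. Among them ATCG01310, ribosomal protein L2, had 7.89, 7.51 and 6.83 FPKM in the Glu libraries, against 5.8, 4.7 and 6.5 FPKM in the mock libraries (log2 fold change 0.34, limma adjusted p = 0.105).

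In leaf 6 of GSH-treated plants limma called none of the 59 chloroplast and 14 mitochondrial members tested, where 4.62% of all genes tested were called. The unadjusted p was under 0.05 for 2 chloroplast members and 1 mitochondrial member, where it was so for 20.4% of all genes tested. The median log2 fold change of the chloroplast members was -0.02, against 0.04 over all genes tested. ATCG00140 came closest, with 6.19, 6.32 and 6.02 FPKM in the GSH libraries against 8.3, 10.3 and 7.6 FPKM in the mock libraries (log2 fold change -0.43, standard error 0.12, limma adjusted p = 0.0796). ATCG00630 had a mean of 4.87 ± 1.42 FPKM in the GSH group and 7.19 ± 0.556 FPKM in the mock group (SD, n = 3 each; limma adjusted p = 0.12). These were the only chloroplast members of which the GSH and mock libraries did not overlap, where 26.5% of all genes tested did not overlap. Without GSH replicate 1 limma called 1 of 57 chloroplast members, which was lower in GSH, where 8.42% of all genes tested in that fit were called.

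GSH and Glu leaves were also set against each other, and both unstimulated groups. Between GSH and Glu limma called none of 59 chloroplast and 15 mitochondrial members, where 0.0826% of all genes tested were called. The unadjusted p was under 0.05 for 6 chloroplast members and 1 mitochondrial member, where it was so for 8.77% of all genes tested. The libraries did not overlap for 8 chloroplast members and 1 mitochondrial member, where 14.6% of all genes tested did not overlap. ATCG00670, the plastid-encoded subunit of the Clp protease, had a mean of 11.9 ± 0.599 FPKM in the GSH group and 9.52 ± 0.704 FPKM in the Glu group (SD, n = 3 each), with no overlap and a limma adjusted p of 0.437. Between mock and wounding mock limma called none of 62 chloroplast and 18 mitochondrial members, where 0.233% of all genes tested were called. The unadjusted p was under 0.05 for 3 chloroplast members and 0 mitochondrial members, where it was so for 5.93% of all genes tested. The libraries did not overlap for 6 chloroplast and 0 mitochondrial members, where 13.4% of all genes tested did not overlap. The median log2 fold change of the chloroplast members was -0.4 for mock against wounding mock, against 0.03 over all genes tested. Without wounding mock replicate 1 it was 0 to 2 decimals (-6.2e-05). Comparisons that use the same group share its libraries, which holds for the mock, wounding mock, GSH and Glu groups.

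The chloroplast members named in notes had different levels and forms. ATCG00430 had 13.7, 2.4 and 5.03 FPKM in the wounding libraries, against 9.47, 2.19 and 3.34 FPKM in the wounding mock libraries. A note names it photosystem II reaction center protein G, and this name was not checked against the chloroplast annotation. ATCG00530, related to the envelope protein CemA, had 18.1, 5.47 and 10.4 FPKM in the wounding libraries, against 29, 7.35 and 6.09 FPKM in the wounding mock libraries. Both were high in the 3 libraries that stood apart. ATCG00670 of the Clp protease had 15.2, 10 and 12.4 FPKM in the wounding libraries, against 42.6, 10.5 and 10 FPKM in the wounding mock libraries. ATCG00750, ribosomal protein S11, had 23.5, 7.88 and 19.2 FPKM in the wounding libraries, against 12.6, 8.04 and 8.62 FPKM in the wounding mock libraries. ATCG00670 was thus led by wounding mock replicate 1, and ATCG00750 by wounding replicates 1 and 3. ATCG01310, ribosomal protein L2, ranged only from 4.7 to 11.6 FPKM over all 15 libraries. ATCG00660, ribosomal protein L20, lay between 0.533 and 6.1 FPKM. ATCG00420, the source of the ndhJ-like pseudogene shown above, had 11.7, 3.32 and 7.73 FPKM in the wounding libraries, against 8.33, 2.27 and 2.23 FPKM in the wounding mock libraries.

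Of the 152 mitochondrial genes, 101 were above 0 in at least 1 library and 51 were listed at 0 in all. Only 27 were above 0 in every library and 17 had a mean of at least 1 FPKM. The 5 highest members held 55.5% of the summed mitochondrial means. ATMG01390 was the highest. It had 8.57, 11.3 and 10.4 FPKM in the GSH libraries and 10.7, 14.6 and 7.93 FPKM in the Glu libraries, against 11, 11.7 and 9 FPKM in the mock libraries. In the wounding libraries ATMG01390 had 30.8, 13.9 and 20.2 FPKM, against 15.2, 7.99 and 11.7 FPKM in the wounding mock libraries. ATMG00020 had 25.1, 4.92 and 12.5 FPKM in the wounding libraries, against 9.73, 4.81 and 4.57 FPKM in the wounding mock libraries. Both had their highest values in wounding replicate 1. ATMG01370 had 14.1, 10.1 and 10.5 FPKM in the wounding libraries, against 15.4, 7.04 and 8.49 FPKM in the wounding mock libraries. ATMG01380 ranged from 1.94 to 10.8 FPKM and ATMG00660 from 1.55 to 5.02 FPKM over all libraries. ATMG00030 and ATMG00665, with ATMG00020, had the largest within-group SD among members with a mean of at least 1 FPKM. ATMG00030 had 6.97, 0.966 and 5.33 FPKM in the wounding libraries, against 2.39, 1.66 and 1.63 FPKM in the wounding mock libraries. ATMG00665 was listed at 0 in GSH replicate 1 and reached 4.4 FPKM in wounding replicate 2.

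**Figure D4:**
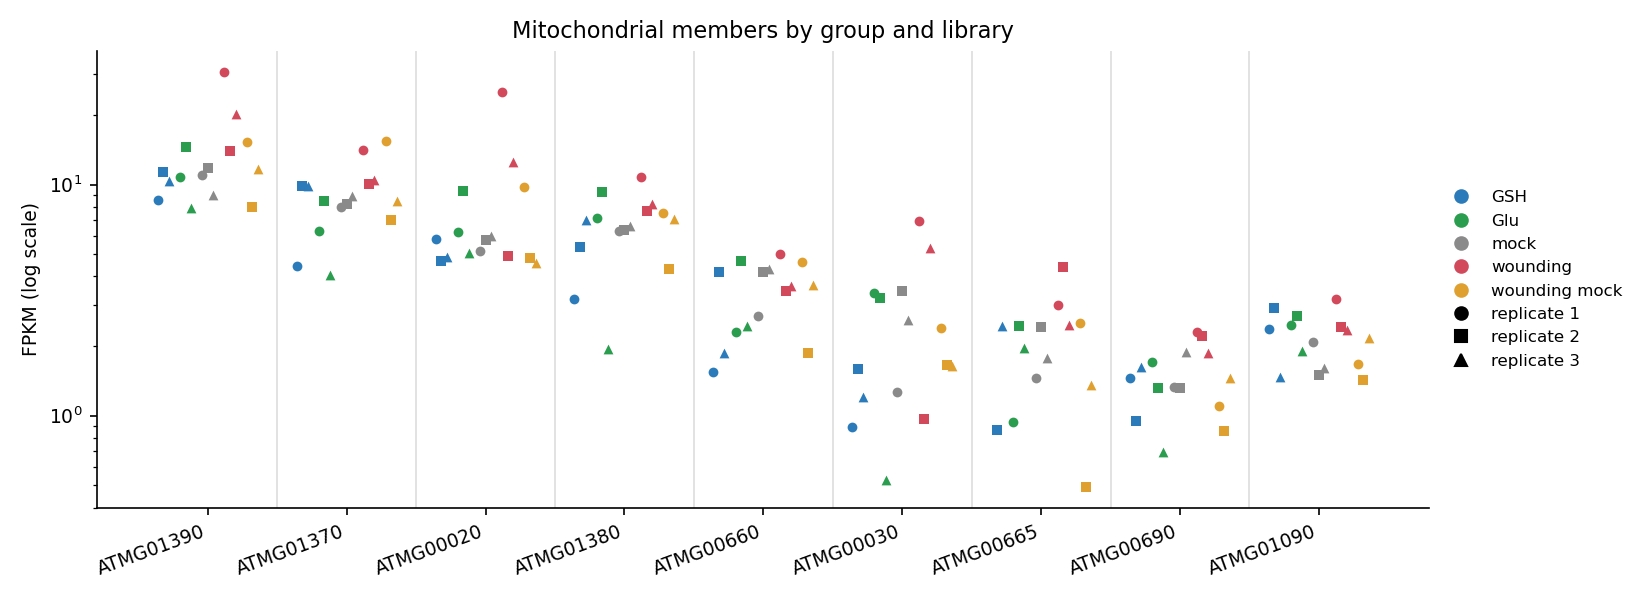
FPKM on a log axis of the 5 mitochondrial members of highest mean, ATMG00030, ATMG00665, ATMG00690 and ATMG01090 in each library (colour, group; shape, replicate); ATMG00665 in GSH replicate 1 is listed at 0 and is not drawn. ATMG01390 and ATMG00020 are highest in wounding replicate 1, at 30.8 and 25.1 FPKM, and the wounding libraries of ATMG00690 lie between 1.86 and 2.29 FPKM.

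In 3 mitochondrial members, or 17.6% of the 17 tested, all wounding libraries lay above the wounding mock libraries, where 14.3% of all genes tested did so. ATMG00690 had 2.29, 2.21 and 1.86 FPKM in the wounding libraries, against 1.1, 0.857 and 1.46 FPKM in the wounding mock libraries. The log2 fold change was 0.55, with a standard error of 0.17 (limma adjusted p = 0.0635), and with 1 library left out at a time its adjusted p lay between 0.046 and 0.239. ATMG01090 averaged 2.65 FPKM in the wounding group and 1.76 FPKM in the wounding mock group (limma adjusted p = 0.163). ATMG01380 averaged 8.93 FPKM in the wounding group and 6.32 FPKM in the wounding mock group (limma adjusted p = 0.198). Without wounding mock replicate 1 limma called 5 of 15 mitochondrial members, all higher in wounding, where 31.8% of all genes tested in that fit were called. In leaf 6 of Glu-treated plants limma called none of the 15 mitochondrial members tested, where 10.2% of all genes tested were called. The unadjusted limma p was under 0.05 for 1 mitochondrial member, where it was so for 26.9% of all genes tested. This was ATMG00070, with 1.57, 2.22 and 1.01 FPKM in the Glu libraries against 0.764, 0.547 and 0.516 FPKM in the mock libraries (log2 fold change 0.67, standard error 0.19, limma adjusted p = 0.0579). The median log2 fold change of the mitochondrial members was -0.16 for GSH against mock. For Glu against mock it was -0.12, and it turned positive without Glu replicate 3 (0.10) and without mock replicate 2 (0.05).

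Many mitochondrial members could not be told from nuclear copies. In TAIR10.1, 52 pairs of an ATMG ID and a chromosome 2 gene named in a note shared at least 99% identity over at least 90% of the nuclear gene. Of these, 27 were identical over the whole nuclear gene. Between them the pairs held 32 mismatches in 64924 aligned bases. All but 1 of the nuclear copies lay within chr2:3239693-3503476, the large insertion of mitochondrial DNA known on this chromosome. The 50 ATMG IDs with such a copy had a median of the mean levels of 0.00847 FPKM, against 0.0546 FPKM for the 102 without one, and 1 of the 50 against 16 of the 102 had a mean of at least 1 FPKM. Of the 43 copies in the table none had a mean of 1 FPKM. The share at 0 in all libraries was 34% with a copy and 33.3% without one.

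Core respiratory genes were among those with a copy, and both members of each pair were near 0. Apocytochrome b (ATMG00220) averaged 0.000461 FPKM and its copy AT2G07727 0.018 FPKM. Cytochrome c oxidase subunit 3 (ATMG00730) averaged 0.0034 FPKM and its copy AT2G07687 0.0319 FPKM. ATP synthase subunit 1 (ATMG01190) averaged 0.00831 FPKM and its copy AT2G07698 0.348 FPKM. ATPase subunit 6-1 (ATMG00410) was listed at 0 in every library, and its copy averaged 0.0013 FPKM. NADH dehydrogenase 3 (ATMG00990) averaged 0.0765 FPKM and its copy 0.178 FPKM. How the authors' counting treated fragments that fit both places is not given in the sources used here, so values of these pairs are uncertain. The mitochondrial sequence of the authors' build was not compared with that of TAIR10.1.

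Nuclear genes whose products work with the organellar genomes were described from fixed lists. Of 12 nuclear genes of PEP-associated proteins, 9 were called lower in Glu leaves against mock leaves, where 3.04% of all genes tested were called lower. The median log2 fold change of the list was -0.44, against 0 to 2 decimals (0.004) over all genes tested. PTAC12, a PEP-associated protein also known as HEMERA, had 31.8, 30.8 and 34.2 FPKM in the Glu libraries, against 69.9, 51.9 and 45.3 FPKM in the mock libraries (log2 fold change -0.75, standard error 0.14, limma adjusted p = 0.0128). FLN1, a fructokinase-like PEP-associated protein, had 38, 37.5 and 38.1 FPKM in the Glu libraries, against 72.9, 55.3 and 48.7 FPKM in the mock libraries (log2 fold change -0.61, limma adjusted p = 0.0212). FSD3, a plastid superoxide dismutase, averaged 45.7 ± 5.05 FPKM in the Glu group and 68.7 ± 14.6 FPKM in the mock group (SD, n = 3 each; limma adjusted p = 0.0405). The count was 0 without Glu replicate 1 and 11 without mock replicate 3. It was 4 without Glu replicate 2 and 4 without mock replicate 2, 5 without mock replicate 1 and 3 without the filter on low values. Without Glu replicate 1 the adjusted p of PTAC12 was 0.0647, that of FLN1 0.0865 and that of FSD3 0.14. In GSH leaves none of the 12 was called (median log2 fold change -0.24), and between GSH and Glu none was called either (median 0.27).

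**Figure D5:**
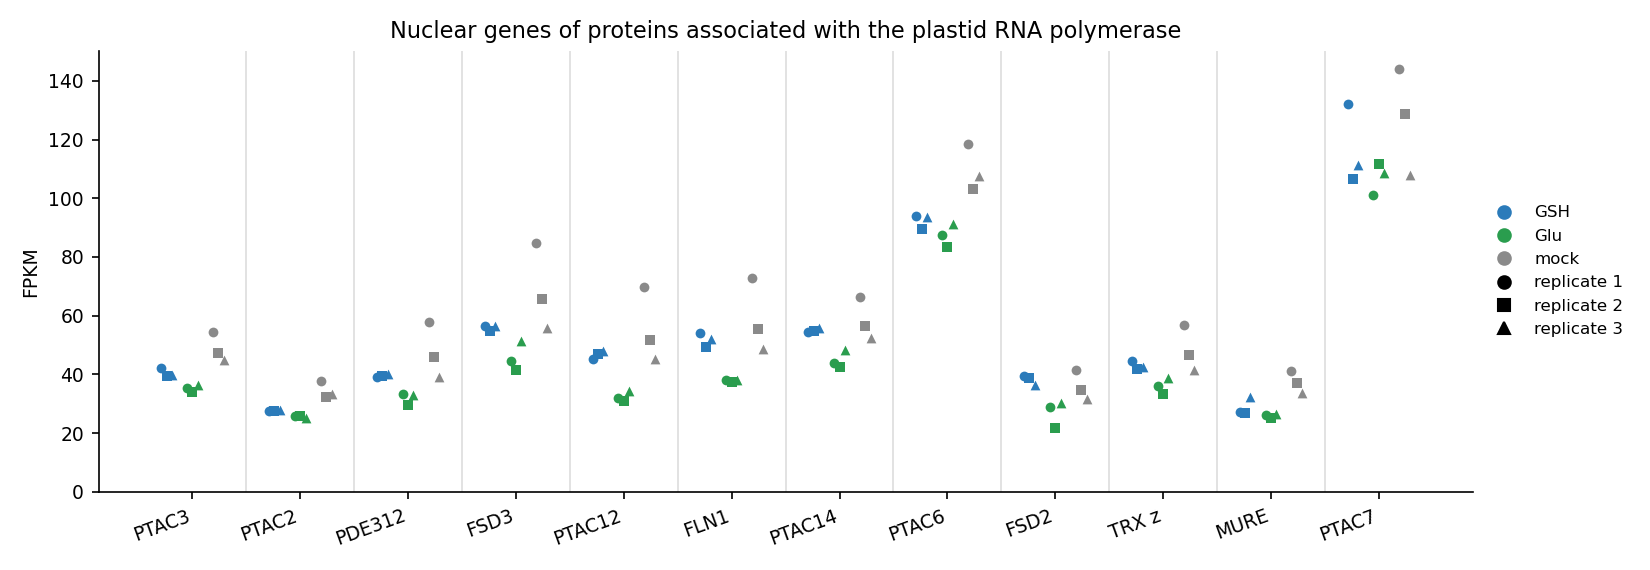
FPKM of the 12 nuclear genes of PEP-associated proteins in the GSH, Glu and mock libraries (colour, group; shape, replicate). Glu libraries lie below mock libraries for PTAC12 (31.8, 30.8 and 34.2 against 69.9, 51.9 and 45.3 FPKM), and mock replicate 1 is the highest mock library for each gene.

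Of the 3 nuclear phage-type polymerase genes 1 was called lower in Glu leaves against mock leaves, and of the 4 RNA decay genes 2 were called lower, where 3.04% of all genes tested were called lower. With 1 library left out at a time 1 to 2 of the decay genes were called. SCA3 (AT2G24120), the plastid phage-type polymerase, averaged 30.9 ± 0.688 FPKM in the Glu group and 43.9 ± 4.18 FPKM in the mock group (SD, n = 3 each; log2 fold change -0.49, limma adjusted p = 0.00798). RIF10, the chloroplast polynucleotide phosphorylase, averaged 34 ± 1.77 FPKM in the Glu group and 47.1 ± 3.01 FPKM in the mock group (SD, n = 3 each; log2 fold change -0.46, limma adjusted p = 0.00826). Both calls held under each alternative run. The decay gene emb2746 (AT5G63420) averaged 38.3 ± 1.84 FPKM in the Glu group and 52.3 ± 5.24 FPKM in the mock group (SD, n = 3 each; log2 fold change -0.44, limma adjusted p = 0.0164), and this call was lost without Glu replicate 1 (0.0866), Glu replicate 2 (0.0507) or mock replicate 2 (0.0569). In GSH leaves against mock leaves SCA3 averaged 32.1 FPKM (limma adjusted p = 0.0468) and RIF10 36.5 FPKM (limma adjusted p = 0.0458), and both calls were lost when any 1 library was left out, with an adjusted p of 0.0581 to 0.15 for SCA3 and 0.0575 to 0.148 for RIF10. AOX1A, the stress-responsive alternative oxidase, averaged 37.8 FPKM in the Glu group and 30.1 FPKM in the mock group (log2 fold change 0.32, limma adjusted p = 0.0454), where 7.13% of all genes tested were called higher. This call was lost without any 1 of the libraries except mock replicate 2, with an adjusted p of up to 0.151.

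In wounding leaves 1 of the 6 nuclear sigma factors was called. SIGA (AT1G64860) had 11, 14.6 and 15.4 FPKM in the wounding libraries, against 40.9, 36.7 and 29 FPKM in the wounding mock libraries (log2 fold change -1.32, standard error 0.17, limma adjusted p = 0.00166). All wounding libraries lay below all wounding mock libraries, including wounding replicate 2, in which chloroplast RNA was not raised. With wounding replicates 1 and 3 left out the log2 fold change of SIGA was -1.22 (adjusted p = 0.122). Of the 12 genes of PEP-associated proteins 3 were called lower in wounding leaves, where 10.9% of all genes tested were called lower, and leaving out 1 library at a time gave 0 to 5. Of the 4 RNA decay genes 2 were called lower, and none without wounding replicate 1, 2 or 3. Of 12 nuclear partners of mitochondrial complexes 1 was called, where 8.76% of all genes tested were called higher. CYTC-2, a cytochrome c, averaged 10.8 ± 0.212 FPKM in the wounding group and 7.8 ± 0.212 FPKM in the wounding mock group (SD, n = 3 each; limma adjusted p = 0.0281), and the call was lost without any 1 of the libraries except wounding mock replicate 1 (adjusted p of 0.0604 to 0.125). Of 7 nuclear partners of chloroplast complexes 2 were called lower. RBCS1B, a small subunit of Rubisco whose close paralogs may share fragments, averaged 497.5 ± 5.47 FPKM in the wounding group and 720.5 ± 35.9 FPKM in the wounding mock group (SD, n = 3 each; log2 fold change -0.53, limma adjusted p = 0.0048, and 0.408 with wounding replicates 1 and 3 left out), and ATPD, a subunit of the chloroplast ATP synthase, had a log2 fold change of -0.53 (limma adjusted p = 0.0207). The call of ATPD was lost without wounding replicate 1, 2 or 3 (adjusted p of 0.0732 to 0.104) and without the filter on low values (0.0539). Of the 5 leaf markers 4 were called lower, and 1 to 4 with 1 library left out at a time, the lowest without wounding replicate 1 or 3. LHCB2.1, a light-harvesting protein, had 123.2, 120.3 and 129 FPKM in the wounding libraries, against 572.8, 715.9 and 642.3 FPKM in the wounding mock libraries (log2 fold change -2.36, limma adjusted p = 6.3e-06). For all genes of this paragraph, wounding and the time of sampling cannot be told apart.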

How the data were processed

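Leaf 6 RNA was sequenced in 15 libraries, 3 in each of 5 groups taken from the labels. Per the labels and methods, the authors trimmed reads, aligned them with HISAT2 to TAIR10 and deposited FPKM values from StringTie. The table is named as raw counts but holds FPKM, so no count test was run and the depth per library is unknown. Shares of summed FPKM were compared by exact permutation tests (scipy 1.17.1). Genes were compared with limma 3.58.1 in R 4.3.3 on log2(FPKM + 1), the prior variance following mean level, and the procedure was tested on simulated data. Every adjusted p of a gene comes from limma, by the Benjamini-Hochberg method over all genes tested. Nuclear copies were aligned to the organelle genomes of TAIR10.1 with blastn 2.17.0, and sequences are those of RefSeq. Members and gene lists were chosen with earlier results of these data known. Members named were the 5 of highest mean and the 3 of largest within-group SD in each organelle, the 5 of lowest adjusted p under 0.05 per comparison, those named in annotation notes, and, chosen after their values were seen, the most raised members, those closest to the threshold and those without overlap. Lists of members by role, and promoter motifs, were not used here because the IDs could not be paired with symbols. A relation over all 15 libraries was planned and replaced by one within 9 libraries, since 3 libraries stood apart. Libraries were not treated as paired by replicate number. The correlation of deviations of same-numbered libraries lay between -0.164 and 0.212 and was not above 0.1 in every pair of any comparison. For wounding against wounding mock it was 0.184, 0.212 and -0.00145 in replicates 1, 2 and 3. Pairing in that experiment can thus not be excluded, and the replicate block is given as an alternative. Alternatives changed the pseudocount, the filter, the scaling, the genes summed, the libraries and the replicate block.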

Additional observations from a re-analysis of the deposited data

How the results depend on the processing

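Of the differences in share, the mitochondrial share for Glu against mock changed sign without the member of highest mean (-3.2e-05 percentage points, against 5.8e-05). With wounding replicates 1 and 3 left out, chosen after seeing the data, the difference for wounding against wounding mock was -0.0564 percentage points for the chloroplast and -0.00014 for the mitochondrion, and with wounding mock replicate 1 also left out it was -0.00538 for the chloroplast and 0.00314 for the mitochondrion. Leaving out 1 library at a time gave chloroplast differences from -0.00255 to 0.00432 (GSH against mock), -0.00659 to 0.00028 (Glu against mock), -0.0154 to 0.083 (wounding against wounding mock), 0.00088 to 0.00685 (GSH against Glu) and -0.0753 to 0.00256 (mock against wounding mock). The mitochondrial differences were -0.00195 to 3.3e-05 (GSH against mock), -0.00186 to 0.00182 (Glu against mock), 0.0019 to 0.00838 (wounding against wounding mock), -0.0030 to 0.00068 (GSH against Glu) and -0.00359 to 0.00173 (mock against wounding mock). F across the groups lay between 0.74 and 2.96 for the chloroplast and between 0.617 and 2.73 for the mitochondrion. Members called by limma, with 1 library left out at a time, numbered 0 to 1 (chloroplast, GSH against mock), 0 to 5 (chloroplast, Glu against mock), 0 to 19 (chloroplast, wounding against wounding mock) and 0 to 5 (mitochondrion, wounding against wounding mock), and 0 in the other comparisons. Without the filter on low values 0 chloroplast members were called in Glu against mock. With a replicate block limma called 1 of 62 chloroplast members in Glu against mock, where 7.41% of all genes were called, and 4 of 76 chloroplast members and 1 of 17 mitochondrial members in wounding against wounding mock, where 17.9% were called, and the block changed no other count of members. With the block 6 of the 12 genes of PEP-associated proteins were called lower in Glu against mock and 0 in wounding against wounding mock, 2 of the 5 leaf markers were called lower in wounding, and it gave ATCG00150 an adjusted p of 0.0544 by limma. Pseudocount and nuclear scaling moved no count of members called. Sums over protein-coding genes only were not run, since the type of the members was not annotated here. The cause of these changes was not tested. Depth is unknown, so the precision of low values cannot be given, and the wounding groups were split in their own replicates.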
